A study of Macaca fascicularis with 23 samples.

Results

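To compare pluripotent stem cells of embryonic and of somatic origin before any naïve-like conversion, the expression profiles of cynomolgus monkey (Cm) ESC lines and Cm iPSC lines cultured in primed medium were set against each other. The comparison used 7 of the 23 SC3-seq libraries, which were all those of cells in bFGF/KSR medium (4 ng/ml bFGF, on laminin-511 without feeder cells). The ESC group held 1 library each of CMK6, TRSK and CMK9, which are lines derived from embryos (CMK6 and TRSK male, CMK9 female). The iPSC group held 1 library each of L3 and L6, made from liver cells, and of S6 and S12, made from stomach cells, all from 1 female foetus. The iPSC lines had been made with episomal plasmids carrying KLF4, L-MYC, OCT3/4, LIN28 and SOX2 together with a small hairpin RNA against p53, and the plasmid with OCT3/4 and the hairpin could still be detected by genomic PCR in L3, L6 and 1 stomach-derived line, which is S6 in the main text and S12 in the supplement. A line was the unit of comparison, so p-values measure the spread between these 7 lines. Donor, sex makeup and reprogramming history go with the type of line and cannot be told apart from it here.

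SC3-seq amplifies cDNA from a small amount of RNA (here 1 ng) and reads only the 3′ ends of transcripts, so that its values (RPM, reads scaled to the total of mapped reads) need no correction for gene length. Of the 8415 genes analysed here, 2513 (29.9%) exceeded 4 on the log2(RPM + 1) scale in at least 1 of the 7 libraries and were tested. The table covers part of the genome, and 5551 of its genes are annotated on chromosomes 1 to 5. Sequencing depth was estimated from the most frequent value above 0 in each library, taken as 1 read. It ran from 861000 reads in L6 to 7986000 in CMK9, and 3 reads amounted to 3.49 RPM in L6 and to between 0.38 and 1.33 RPM in the other lines. Levels at or under that floor could not be told from 0. All 6 pluripotent cell markers analysed were expressed, with a summed level of 1390 to 2460 RPM in the ESC lines and 785 to 1930 RPM in the iPSC lines, the lowest in S12. Of the markers of the tissues of origin, only AFP passed the threshold among 4 hepatocyte markers, and all 3 gastric epithelium markers were at 0 in every line. In the somatic libraries, the 4 hepatocyte markers were at 0 in the liver library too and the gastric markers summed to 256 RPM in the stomach library, while COL1A2 lay at 4830 and 4510 RPM, so that the lack of hepatocyte markers says nothing of origin. The 2 blood cell markers did not exceed a sum of 1.23 RPM, while COL1A2, the 1 fibroblast marker analysed, lay at 75.5 to 579 RPM in the ESC lines and at 21.7 to 159 RPM in the iPSC lines.

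Primed pluripotent cells resemble the epiblast after implantation. They express the core factors OCT3/4 (POU5F1) and SOX2, depend on FGF and on ACTIVIN/NODAL signalling, and respond to NODAL by expressing its secreted antagonists of the LEFTY family as feedback. Reprogramming with defined factors returns somatic cells to the same state, and the resulting lines are usually judged by how far their profiles can be told from those of ESCs.

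The 2 types of line were separated as whole profiles by little more than the lines of 1 type were from each other. Euclidean distances over the 2513 genes averaged 38.2 among the ESC lines (3 pairs, 34.8 to 42.4), 37.6 among the iPSC lines (6 pairs, 30.5 to 44.5) and 43.5 between an ESC and an iPSC line (12 pairs, 34.8 to 56.9). All 7 lines had their nearest neighbour in their own type. For CMK6 this held only narrowly, since CMK9 and the iPSC line S6 both lay at 34.8 when rounded. CMK6 was also closer to L3 (36.2) and L6 (36.9) than to TRSK (37.5). The ratio of between-type to within-type variation (pseudo-F) was 2.11, the highest of all 35 ways to divide 7 lines into 3 and 4 (p = 0.0286 in a one-sided exact permutation test, the smallest p this design allows). It stayed between 1.68 and 2.02 when any 1 line was left out, where the smallest p allowed is 0.0667 or 0.1. The pair farthest apart was CMK9 and S12. Although the iPSC lines came from 1 foetus and the ESC lines are of both sexes, the mean distance among ESC lines exceeded that among iPSC lines by only 0.64 (exact permutation test, two-sided, p = 0.857), and this difference changed sign in both directions as single lines were left out (−2.82 to 5.69). The plot of distances shows how far the between-type pairs overlapped those within a type.

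**Figure D1:**
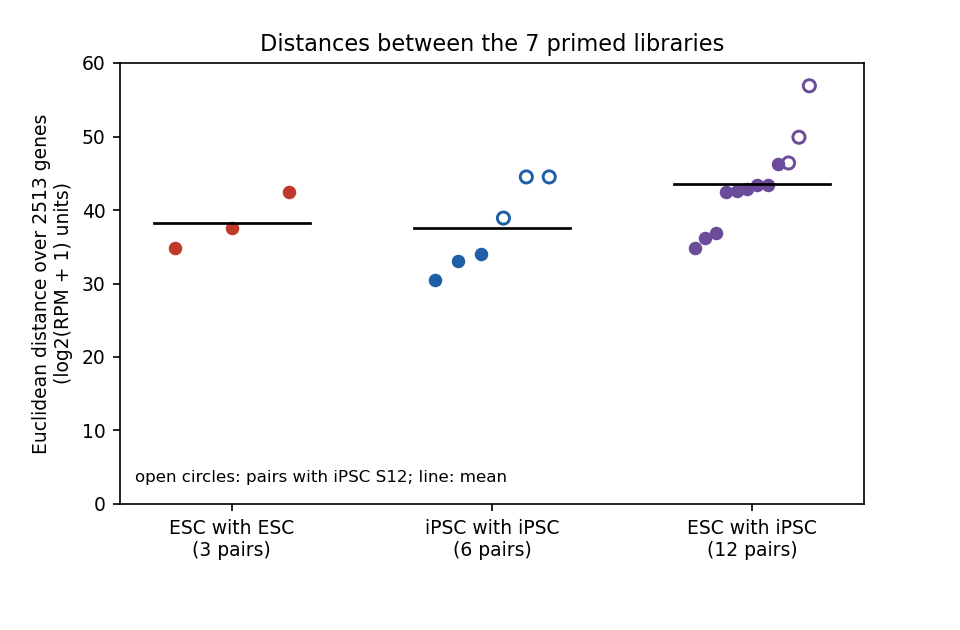
Euclidean distance between primed libraries over 2513 genes on the log2(RPM + 1) scale, with 1 point for each pair of lines, for pairs within the ESC lines, within the iPSC lines and between the types. Lines mark the means and open circles the pairs that include S12. The between-type pairs average 43.5 against 38.2 and 37.6 within the types, and the ranges overlap.

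Gene by gene, 3 of 2513 genes (0.119%) differed between the types by limma with Benjamini-Hochberg adjustment (adjusted p under 0.05), and all 3 were higher in the iPSC lines. No gene was called higher in the ESC lines, although 126 genes had an unadjusted p under 0.05 in that direction and 197 in the other. By chance 125.7 genes would be expected in the 2 directions together. At an adjusted p under 0.1 there were 13 genes, again all higher in the iPSC lines. Not every alternative was so one-sided. Among those with primed libraries only, the ESC side had 1 call without the mean-variance trend, with the liver-derived iPSC lines only, and without CMK9. The median absolute difference over all genes was 0.26. A cruder measure, the number of genes whose 3 ESC values and 4 iPSC values did not overlap, gave 315 genes (12.5%), of which 176 (7.0%) were higher in the iPSC lines and 139 (5.53%) in the ESC lines. That split depended on the scaling, since quantile normalization gave 134 and 172 genes and centring each library gave 128 and 186. When the spread was estimated from all 21 PSC libraries, with the line as a block, 41 genes (1.63%) were called in the primed comparison, 22 (0.875%) higher in the iPSC lines and 19 (0.756%) in the ESC lines, including the 3 above. Each line enters that fit in 3 media, with 1 within-line correlation (0.169) for all genes, so the 41 calls rest on the same 7 lines.

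The first of the 3 called genes was LEFTY2 (gene ID 102144954), the secreted antagonist and target of NODAL. It lay at 2.46, 2.65 and 3.94 RPM in CMK6, TRSK and CMK9 and at 43.5, 31.4, 64.9 and 109 RPM in L3, L6, S6 and S12. The lowest iPSC line was thus far above the highest ESC line. On the log2(RPM + 1) scale the means were 1.99 ± 0.28 (SD, n = 3) and 5.83 ± 0.76 (SD, n = 4), a difference of −3.84 for ESC minus iPSC (SE 0.41, 95% interval −4.75 to −2.93, limma adjusted p = 0.00403), or 14.3-fold on that scale. The call held in 18 of 19 alternatives, with adjusted p from 0.00214 to 0.0719, and was lost when genes at low levels were tested too. LEFTY1, a near-identical gene that is 2 genes away in the RefSeq gene order, did not follow it in the liver-derived lines. Its values were 1.85, 0.294 and 2.44 RPM in the ESC lines, 0 and 2.32 RPM in L3 and L6, and 52.8 and 21 RPM in S6 and S12 (difference −1.76, limma adjusted p = 0.602, 0.216 to 0.941 over its alternatives). Reads that match both genes may have been divided between them, so each value is uncertain to that extent.

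TMEM200A (gene ID 102121485), which encodes a transmembrane protein, lay at 5.85, 1.18 and 5.76 RPM in the ESC lines and at 52.0, 54.6, 23.5 and 67.8 RPM in the iPSC lines. The difference was −3.34 (SE 0.49, 95% interval −4.42 to −2.27, limma adjusted p = 0.0235, 0.00225 to 0.216 over 19 alternatives, of which 11 passed). Without L3 the adjusted p was 0.168, without L6 it was 0.12 and without TRSK it was 0.0623, while the difference itself kept between −2.79 and −3.66 with any 1 line left out. The third gene, LOC102139111, has no symbol in the annotation. It was abundant in every line, at 342, 217 and 321 RPM in the ESC lines and at 799, 749, 644 and 638 RPM in the iPSC lines, and its difference had the smallest SE of the 3. Its difference was −1.29 (SE 0.18, 95% interval −1.69 to −0.89, limma adjusted p = 0.0235, 6.23e-05 to 0.216 over 19 alternatives, of which 12 passed). Without L3, L6 or S6 its adjusted p rose to 0.168, 0.12 or 0.0729, with differences of −1.23, −1.26 and −1.33.

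Other genes with large differences and no overlap between the types were higher in the iPSC lines without passing the adjusted threshold. CHAF1B, a subunit of the chromatin assembly factor that places histones on newly copied DNA, lay at 1.85, 4.61 and 3.38 RPM in the ESC lines and at 28.2, 31.4, 19.1 and 13.3 RPM in the iPSC lines. Its difference of −2.47 missed the threshold with limma (adjusted p = 0.0645, 0.0021 to 0.276 over its alternatives) and passed it with the spread of all 21 libraries and the line as a block (0.0021), as well as without S12 (0.0406). RGS4, which dampens signalling through G proteins, ranged from 1.18 to 2.88 RPM in the ESC lines and lay at 10.3, 15.1, 23.9 and 86.8 RPM in L3, L6, S6 and S12, a difference of −3.03 (limma adjusted p = 0.108, 0.0236 with the block). CCN2, a secreted matrix-associated protein, was the most abundant of the set, at 505, 244 and 29.9 RPM against 1146, 926, 859 and 1179 RPM. CMK9 was far below the other ESC lines, and the difference was −2.70 (limma adjusted p = 0.177, 0.0473 to 0.524). F3, the tissue factor that starts blood coagulation, differed by −2.53, HTR1D, a serotonin receptor, by −2.60, the homeobox gene MSX1 by −2.30 and NT5E, a cell surface enzyme that makes adenosine, by −2.21. Their limma adjusted p lay between 0.128 and 0.26, and S12 was the highest iPSC line for HTR1D (64.7 RPM) and NT5E (78.0 RPM).

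On the ESC side no gene passed. Among genes without overlap whose ESC mean exceeded 4 on the log2(RPM + 1) scale, the largest differences belonged to genes near the detection floor in the iPSC lines. FAM162B (3.43) and NPY (3.10) differed by more, with ESC means of 3.73 and 3.43. DPPA2, a chromatin-binding factor of pluripotent cells and early embryos, lay at 20.9, 17.6 and 13.7 RPM in the ESC lines and at 2.35, 3.49, 0.651 and 0.664 RPM in the iPSC lines. L6, S6 and S12 were at or under the level of 3 reads, and only L3 was above it. The difference was 2.84 (95% interval 1.49 to 4.19, limma adjusted p = 0.108, 0.0236 to 0.252 over its alternatives), and the lower value is that of the block fit, where it passed. GRHL3, a transcription factor of surface epithelia, was at 26.2, 9.41 and 25.8 RPM against 3.23, 3.49, 3.04 and 0.886 RPM, with a difference of 2.50 (limma adjusted p = 0.128, 0.0112 with the block). The unnamed gene LOC102137968 (26.2, 22.9 and 11.4 RPM against 0 to 3.04 RPM) differed by 2.99, and LOC102116009 by 2.15. With the block both passed, at 0.0236 and 0.0447.

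Further genes were higher in every ESC line without passing the threshold. F11R, a tight junction adhesion molecule, lay within 59.1 to 63.5 RPM in the ESC lines and within 22.2 to 25.9 RPM in L3, L6 and S6, but at 5.32 RPM in S12 (difference 1.79, limma adjusted p = 0.162, 0.0548 to 0.331). FCGR2B, an antibody receptor with close copies that could share its reads, differed by 2.13 and ranged from 0.886 RPM in S12 to 18.5 RPM in L3 among the iPSC lines. ABHD11, a mitochondrial hydrolase, differed by 1.64 and passed with the spread of all 21 libraries, both with the block (0.0294) and without it (0.0257). TFB2M, a transcription factor of mitochondrial DNA, differed by 1.51, LOC102122729 by 1.44 and the hyaluronidase HYAL1 by 1.33, with limma adjusted p of 0.183 to 0.267. Every one of the genes named here for its lack of overlap had an exact permutation p of 0.0571, the smallest that 3 against 4 lines allow in a two-sided test. A lack of overlap fixes that p in advance, so it adds nothing to the way these genes were chosen. The plot of named genes gives each line's value.

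**Figure D2:**
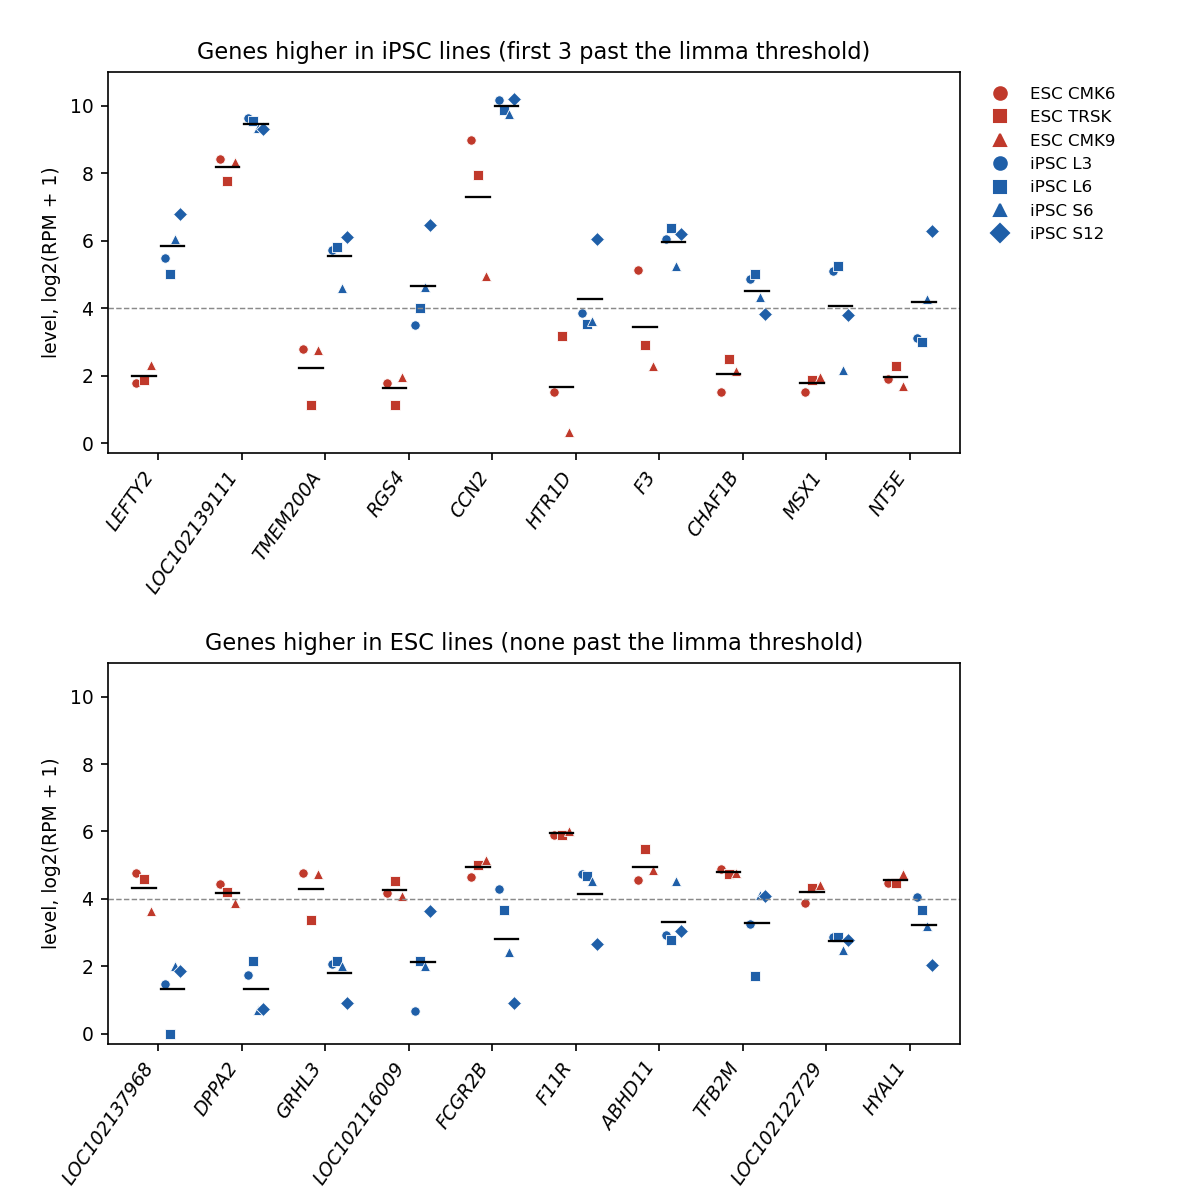
Level on the log2(RPM + 1) scale of the 20 genes named by the selection rule in each of the 7 primed lines, with ESC lines in red and iPSC lines in blue, bars for the mean of each type and a dashed line at the threshold of 4. Only LEFTY2, TMEM200A and LOC102139111 passed the adjusted threshold, and LEFTY2 spans 1.99 to 5.83 between the means.

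Of 34 genes of the core and primed pluripotency list, 14 were in the part of the genome analysed and were tested. NANOG was not among the genes analysed. Of the 14 genes 1 (LEFTY2) was called, beside 0.119% of all tested genes. The median difference was 0.38 (0.07 to 0.55 over the alternatives), beside −0.048 over all genes, with 9 genes higher on average in the ESC lines and 5 in the iPSC lines. POU5F1 (gene ID 102115117), the core factor OCT3/4, lay at 253, 363 and 427 RPM in the ESC lines and at 230, 238, 207 and 32.8 RPM in the iPSC lines. L3, L6 and S6 lay close below the ESC lines, and S12 stood far under them. The difference of 1.28 had a 95% interval from −0.00 to 2.56 (limma adjusted p = 0.388, 0.307 to 0.619 over its alternatives; exact permutation p = 0.0571), and without S12 it was 0.59. SOX2, the partner of OCT3/4, lay at 497, 277 and 487 RPM against 449, 528, 347 and 341 RPM (difference −0.01, 95% interval −0.53 to 0.51, limma adjusted p = 0.991), and the sign changed with the scaling.

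DPPA4, the partner of DPPA2, followed the same order without overlap, at 125, 134 and 170 RPM in the ESC lines and at 120, 89.5, 71.4 and 36.3 RPM in the iPSC lines. Its difference of 0.95 (SE 0.34, 95% interval 0.20 to 1.70) did not pass (limma adjusted p = 0.274; exact permutation p = 0.0571). The RNA-binding protein gene LIN28A lay at 1132, 501 and 1071 RPM against 751, 847, 774 and 349 RPM, and L1TD1, an RNA-binding partner of LIN28A, at 133, 79.7 and 240 RPM against 90.6, 145, 113 and 19.9 RPM. In both genes the types overlapped and S12 was the lowest line (differences 0.40 and 0.87). S12 was thus the lowest of the 7 lines for POU5F1, DPPA4, LIN28A and L1TD1, while its SOX2 was close to that of S6. S12 was also the lowest for CRIPTO, HESX1, CD24, TRIM71, JARID2 and MYCL, and not for DPPA2, LIN28B, LEFTY1 and LEFTY2. The lean of the list to the ESC side thus rests in part on this 1 line. Besides LEFTY1 (−1.76, described above), the differences of the remaining members lay between −0.28 (LIN28B) and 0.62 (JARID2), with CRIPTO, the NODAL co-receptor, at −0.19, HESX1 at 0.39, CD24 at 0.34 and TRIM71 at 0.37. Of the factors used for reprogramming 4 were tested (POU5F1, SOX2, LIN28A and MYCL), and MYCL overlapped between the types at 9.23, 17.9 and 41.3 RPM against 14.4, 19.8, 10.4 and 4.87 RPM (difference 0.74). Of 18 listed genes of naïve pluripotency only 5 were analysed. None of these 5 was expressed, with KLF17 and DPPA5 at 0 in all 7 libraries and DNMT3L at no more than 2.22 RPM. The plot of pluripotency genes shows the position of S12 for each of them.

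**Figure D3:**
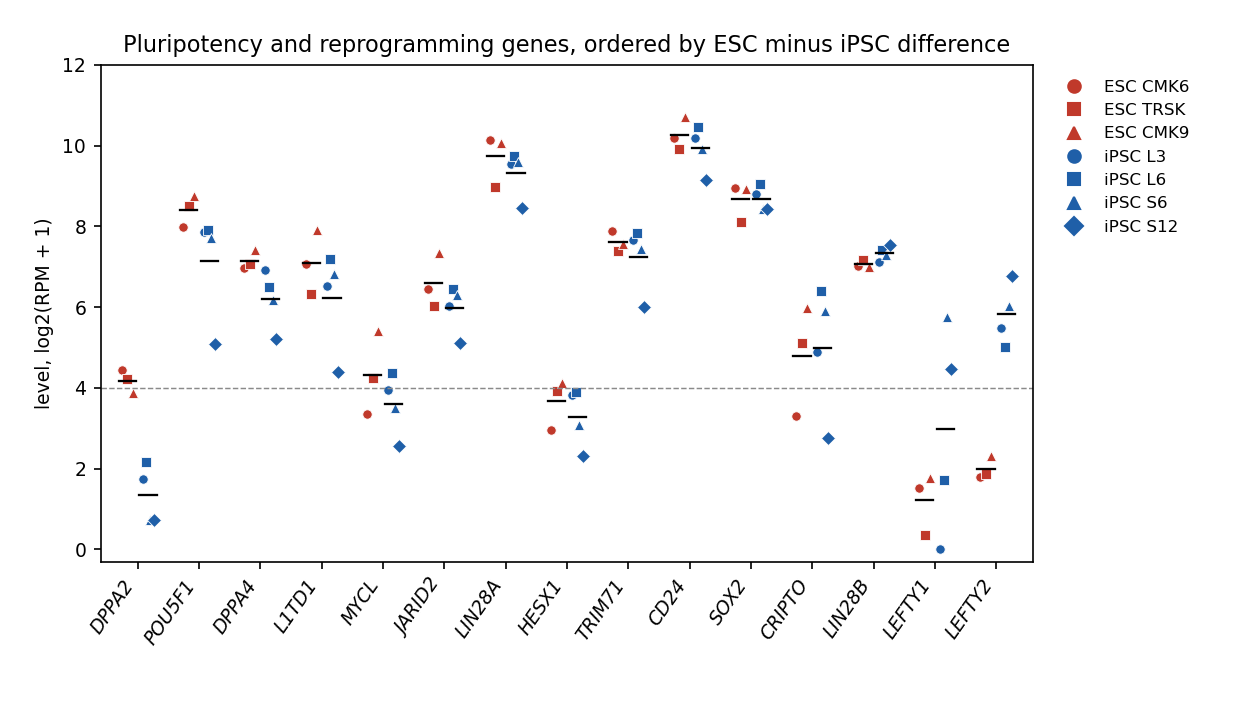
Level on the log2(RPM + 1) scale of the pluripotency and reprogramming genes in each primed line, with 1 point per line, bars for the mean of each type and a dashed line at the expression threshold of 4. S12 is the lowest line for POU5F1 (32.8 RPM) and DPPA4 (36.3 RPM), and LEFTY2 is the 1 gene that passed the adjusted threshold.

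Genes of NODAL and BMP signalling were mostly higher in the iPSC lines by their averages, with 9 of 12 tested genes on that side and a median of −0.62 (−1.31 to −0.53 over the alternatives). The 1 called gene was LEFTY2, which is also the called gene of the pluripotency list, beside 0.119% of all tested genes. Besides LEFTY2, the types did not overlap for SKIL, an inhibitor of SMAD proteins (102, 87.9 and 12.5 RPM against 214, 171, 192 and 359 RPM, difference −2.17, limma adjusted p = 0.184), and for MSX1, a BMP target (1.85, 2.65 and 2.88 RPM against 33.2, 37.2, 3.47 and 12.8 RPM). These 3 of 12 genes were higher in every iPSC line, beside 7.0% of all tested genes. For SKIL the low ESC value was that of CMK9. The ligand TGFB2 differed by −1.80 and was highest in S12 (94.3 RPM), while the BMP target ID3 (0.56) and the co-receptor TGFBR3 (1.06) lay on the ESC side by their averages. In each of these genes the types overlapped (limma adjusted p = 0.455 to 0.512). Of 5 analysed early lineage genes 2 were tested, and in both all iPSC lines exceeded all ESC lines, beside 7.0% of all tested genes. These were MSX1 and EOMES, a T-box factor of mesendoderm, at 2.46, 8.52 and 0.501 RPM against 17.1, 25.6, 12.6 and 9.82 RPM (difference −2.15, limma adjusted p = 0.227). L6 and L3, the liver-derived lines, were the highest for EOMES and MSX1.

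Genes of the Hippo pathway, through which TEAD factors with YAP or TAZ drive growth and matrix genes, had the most negative median of the lists with at least 5 tested genes, at −1.32 (8 genes, none called). In 4 of the 8 genes (against 7.0% of all genes) every iPSC line exceeded every ESC line. These were CCN2, WWTR1, which encodes TAZ (101, 38.8 and 19.5 RPM against 107, 123, 118 and 156 RPM), AMOTL2 (186, 135 and 34.6 RPM against 379, 262, 205 and 238 RPM) and VGLL4 (65.2, 74.1 and 30.3 RPM against 159, 115, 93.8 and 126 RPM). Their differences lay between −2.70 and −1.18, with limma adjusted p of 0.177 to 0.245. In each of them CMK9 was the lowest line, as it was for CYR61, another TEAD target (684, 373 and 74.0 RPM against 725, 704, 1001 and 638 RPM), where CMK6 overlapped the iPSC lines. Without CMK9 the median of the list was −0.66. TEAD3, LATS1 and PTPN14 lay between −0.13 and 0.55.

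Neural genes went in both directions, with 9 tested, a median of −0.38 (−0.63 to 0.24 over the alternatives, so that its sign turned) and none called. FABP7, a fatty acid binding protein of radial glia, was at 6.77, 2.35 and 0.626 RPM in the ESC lines and at 82.6, 80.2, 29.1 and 3.99 RPM in the iPSC lines. The liver-derived lines were the highest and S12 overlapped CMK6, so that the difference of −3.19 had a limma adjusted p of 0.205 (0.0199 to 0.534 over its alternatives). The neuropeptide gene NPY showed the opposite order, with 7.38, 7.05 and 17.5 RPM in the ESC lines, 1.47 RPM in L3 and 0 in L6, S6 and S12. NES, an intermediate filament gene of neural progenitors, was also higher in every ESC line, at 482, 563 and 441 RPM against 192, 205, 348 and 293 RPM (difference 0.97, limma adjusted p = 0.128). CNTNAP2, a neuronal cell adhesion protein, was the 1 neural gene higher in every iPSC line, with a difference of −1.27 (limma adjusted p = 0.183). Of the 9 tested genes 2 were thus higher in every ESC line and 1 in every iPSC line, beside 5.53% and 7.0% of all tested genes.

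The targets of p53, tested because a p53 hairpin was among the reprogramming plasmids, had a median of 0.15 over 12 genes (−0.01 to 0.54 over the alternatives), with 9 of 12 higher on average in the ESC lines and none called. CDKN1A, the cell cycle inhibitor p21, lay at 47.4, 58.5 and 45.7 RPM in the ESC lines and at 6.18, 18.6, 48.2 and 15.1 RPM in the iPSC lines, and PHLDA3 at 32.3, 17.1 and 25.2 RPM against 6.18, 5.81, 19.5 and 4.87 RPM. In both genes S6 reached the range of the ESC lines and the other 3 iPSC lines did not (differences 1.49 and 1.52, limma adjusted p = 0.26 and 0.239). GADD45A went the other way, with a difference of −1.31, and its lack of overlap was marginal (160.6 RPM in CMK6 against 160.9 RPM in L6). ASCC3 was higher in every ESC line by 1.18 and passed with the block (limma adjusted p = 0.0247). Each was the 1 gene of 12 without overlap on its side, beside 7.0% (iPSC) and 5.53% (ESC) of all tested genes.

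Genes of glutathione metabolism had 12 tested members and a median of −0.19, with 2 genes without overlap on each side (7.0% of all tested genes on the iPSC side and 5.53% on the ESC side). GSTM1, a glutathione transferase, lay at 8.49, 7.32 and 7.88 RPM in the ESC lines and at 37.3, 28.8, 14.1 and 27.2 RPM in the iPSC lines (difference −1.57, limma adjusted p = 0.128, 0.0397 with the block). GSTA4 lay at 65.5, 22.0 and 50.9 RPM against 105, 128, 99.9 and 97.9 RPM (difference −1.33, limma adjusted p = 0.15, 0.0236 with the block). GSTM3 was at 0 in CMK6 and CMK9 and at 35.3 RPM in TRSK, against 5.65 to 38.4 RPM in the iPSC lines. The GSTM genes are close copies, so reads may have been divided between them, and GSTM2 went the opposite way (1.14). Of the chromatin genes 2 of 16 were higher in every ESC line (5.53% of all tested genes), and 1 of them was HDAC1, a histone deacetylase, at 97.5, 118 and 97.9 RPM against 54.1, 54.6, 55.6 and 59.8 RPM (difference 0.88, limma adjusted p = 0.108, 0.0404 with the block).

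Few genes tied to the tissues of origin were expressed. The 2 hepatic genes tested overlapped between the types, with AFP at 29.2, 30.3 and 55.9 RPM in the ESC lines and at 50, 45.3, 51.7 and 3.10 RPM in the iPSC lines, so that L3, L6 and S6 lay together and S12 apart. SOX2 was the 1 gene of the gastric list that was tested. Of the 176 genes higher in every iPSC line, 81.2% exceeded 4 on the log2(RPM + 1) scale in the somatic liver or stomach library, beside 78.4% of all tested genes and 73.4% of the 139 genes higher in every ESC line. Mesenchymal genes had a median of −0.36 over 18 tested members, of which 1 was higher in every ESC line and 2 in every iPSC line, beside 5.53% and 7.0% of all tested genes. COL1A2 overlapped between the types at 244, 579 and 75.5 RPM against 32.1, 22.1, 21.7 and 159 RPM. Imprinted genes (10 tested, median −0.23) had no member without overlap, where 12.5% of all tested genes did not overlap. Ribosomal protein genes (18 tested, median 0.02), respiratory chain genes (19, −0.02) and proliferation genes (17, −0.08) were near the median of all genes. The plot of gene lists sets these beside each other.

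**Figure D4:**
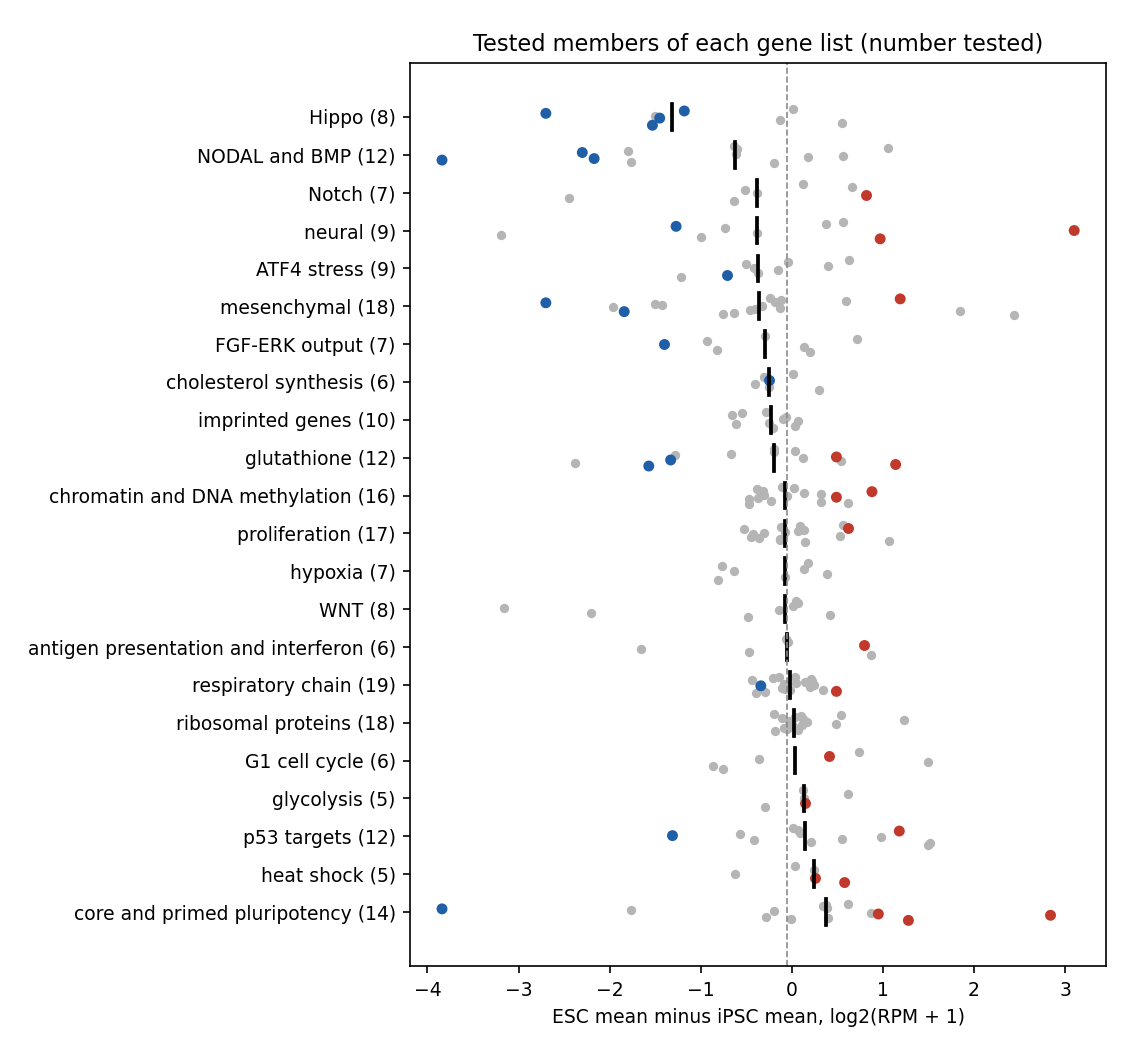
ESC minus iPSC difference on the log2(RPM + 1) scale for each tested gene (points) of the lists with at least 5 tested genes, with the median of each list (bars) and of all 2513 genes (dashed line). Blue points are genes higher in every iPSC line, red points genes higher in every ESC line, and grey points overlap. The Hippo list has a median of −1.32 and the pluripotency list of 0.38, while ribosomal protein and respiratory chain genes lie near 0.

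The same lines were also measured after naïve-like conversion (K5cLD medium with Dox-induced KLF2 and NANOG transgenes) and after removal of LIF and Dox (K5c medium, differentiated), so that the differences could be followed in libraries that were not in the limma fit of the 7 primed ones. These libraries share their lines with the primed ones and are not independent lines. Of the 315 genes without overlap in primed medium, 238 (75.6%) kept their sign in naïve-like libraries and 214 (67.9%) in differentiated libraries, beside 63.7% and 54.6% of all tested genes. The types did not overlap in the same direction for 73 of them (23.2%) in naïve-like and 66 (21%) in differentiated libraries, where 11.7% and 11.5% of all tested genes did not overlap in either direction. For 31 of the 315 genes (of 2513 tested), 16 higher in iPSC and 15 in ESC lines, this held in all 3 media. Of the 41 genes called with the block, whose spread came from these libraries as well, 19 were among these 31.

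LOC102139111, CHAF1B, GSTM1 and GSTA4 were among the genes that were higher in every iPSC line in all 3 media. LOC102139111 differed by −1.29 before conversion, by −1.32 after it and by −1.18 in the differentiated libraries, and CHAF1B by −2.47, −2.27 and −2.10. On the ESC side the same held for GRHL3 (2.50, 0.84 and 1.64), HDAC1, LOC102116009, LOC102122729 and FAM162B, a relative of a mitochondrial protein. FAM162B, chosen after its values were seen, lay in primed medium at 16.3, 17.9 and 6.14 RPM in the ESC lines and under the level of 3 reads in all 4 iPSC lines.

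LEFTY2 and DPPA2 showed no such persistence. LEFTY2 in naïve-like libraries lay at 3.46, 0 and 6.91 RPM in the ESC lines and at 3.97, 3.32, 1.75 and 10.3 RPM in the iPSC lines, with a difference of −0.63. In differentiated libraries LEFTY2 was at 0 in every line but CMK9, where its 0.422 RPM was under the level of 3 reads (0.63 RPM). The difference of 0.17 there is thus that of an undetected gene and cannot show whether LEFTY2 would differ between the types. The change of the LEFTY2 difference from primed medium had an unadjusted p of 0.000582 and 5.15e-05 by limma, with adjusted p of 0.493 and 0.0948. DPPA2 was at 105, 27.1 and 40.6 RPM in naïve-like ESC lines and at 45.3, 26.6, 10.9 and 135 RPM in naïve-like iPSC lines, so that all 4 iPSC lines were above their primed values and the types overlapped (difference 0.39). POU5F1 kept its order in naïve-like libraries (575, 469 and 433 RPM against 202, 183, 137 and 289 RPM, difference 1.32) and not in differentiated ones (−0.04). TMEM200A was higher in every iPSC line in naïve-like libraries (−1.53) and differed by −0.98 in differentiated ones. Over all genes, limma called no difference between media in the ESC minus iPSC contrast (0 genes in either medium against primed, also when the block was omitted). An unadjusted limma p under 0.05 was reached by 172 genes in naïve-like and 322 in differentiated libraries, beside 125.7 expected by chance. The plot by medium sets the 3 differences of each named gene side by side.

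**Figure D5:**
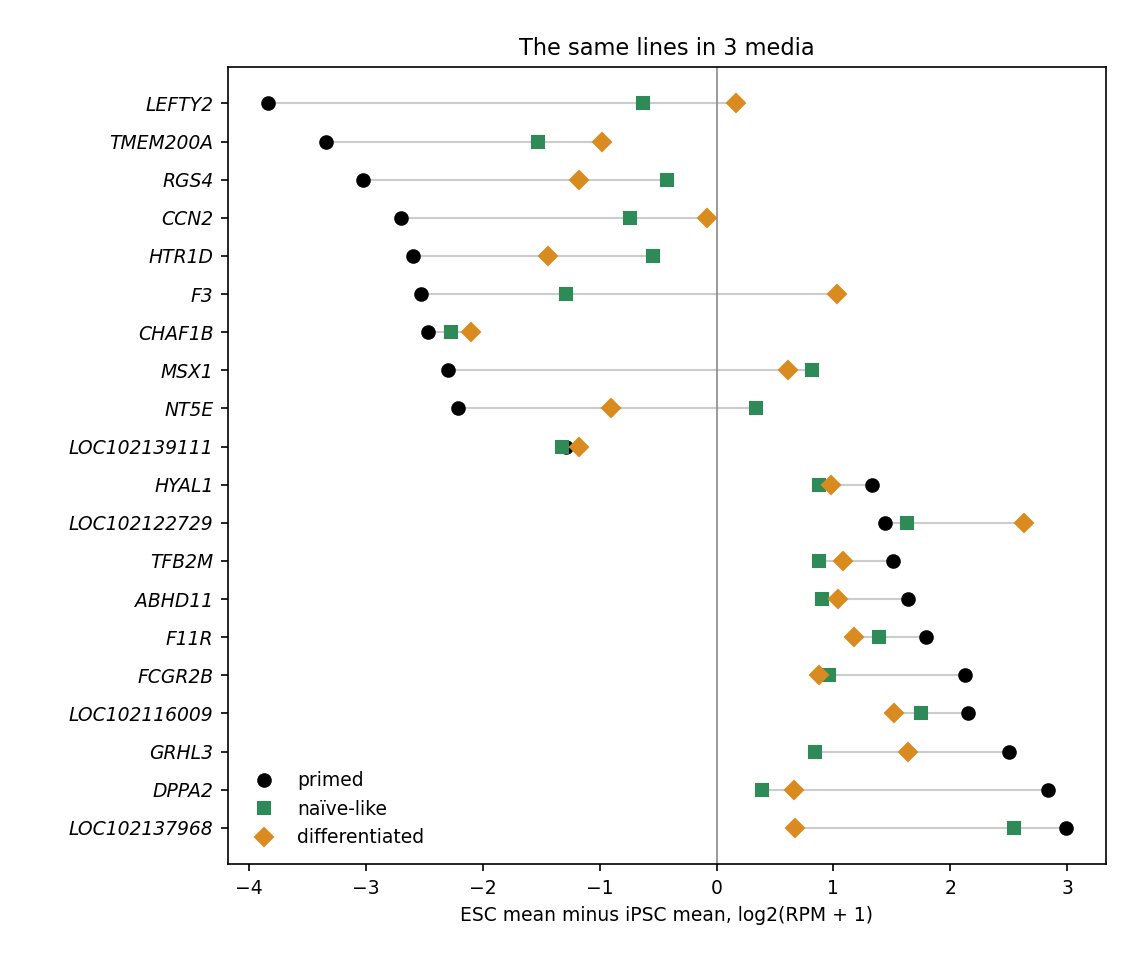
ESC mean minus iPSC mean (log2(RPM + 1) scale, 3 against 4 lines) of the 20 genes named by the selection rule, with 1 symbol each for primed, naïve-like and differentiated libraries. The symbols of LOC102139111 lie together (−1.29, −1.32 and −1.18), as do those of CHAF1B, while those of LEFTY2 run from −3.84 to 0.17. In the differentiated libraries LEFTY2 was at 0 in every line but CMK9 (0.422 RPM).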

How the data were processed

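The deposited values were RPM, which the authors derived with cufflinks from SC3-seq reads scaled to the library total, with 1 column per library. The submitters' processing notes list cutadapt 1.3, TopHat 1.4.1 and Cufflinks 2.2.0. Since only 87.9% to 93.2% of the lower values in a primed library were whole multiples of the value taken as 1 read (within 0.01 read), the values were not treated as counts. Genes above 4 on the log2(RPM + 1) scale (pseudocount 1) in at least 1 of the 7 primed libraries were tested between the types with limma (version 3.58.1, R 4.3.3; mean-variance trend, two-sided, Benjamini-Hochberg over 2513 genes), tested on simulated data beforehand. The study's statistics section gives tests for mean values in general and does not single out the sequencing data. The alternatives were pseudocounts of 0.1 and 4, filters, 2 scalings, no trend, liver- or stomach-derived iPSC lines alone, each line left out, and all 21 PSC libraries with and without the cell line as a replicate block. The same line in 3 media pairs the libraries (correlation within a line 0.169). Media were compared within that fit. Distances used exact permutation over 35 divisions (scipy 1.17.1). Genes were named by rule: called genes, filled to 10 per direction with the largest differences without overlap among genes whose higher group averaged above 4, all pluripotency and reprogramming factor genes, and from other lists called members or else the 2 with the largest differences. Further members of a list were named because they did not overlap or to show both directions. The rule, the members and the gene lists were chosen with earlier results of these data known. Symbols came from the deposited table or, for 991 genes, from RefSeq by gene ID (5564 matched, 2851 did not), and 1 row that was cut short was left out.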

Additional observations from a re-analysis of the deposited data

Results flagged for a closer look

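Of 52 sets of 4 primed iPSC values examined, 10 held a line whose gap to its nearest neighbour took up more of the range of the 4 than chance gives in about 1 of 20 sets. S12 was that line in 7 of them. It was the lowest for POU5F1 (gap of 0.929 of the range, with log2(RPM + 1) values of 7.85, 7.90, 7.70 and 5.08 in L3, L6, S6 and S12), LIN28A (0.864), AFP (0.95, values of 5.67, 5.53, 5.72 and 2.04), GRHL3 (0.879) and F11R (0.897), and the highest for HTR1D (0.864). Its mean distance to the other iPSC lines was also the largest, at 42.63 against 35.35 to 36.32 (0.867). S6 was the highest iPSC line for ABHD11 (0.838) and PHLDA3 (0.84). L3 was the highest for NPY (1.0), where the other 3 lines were at 0.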

How the results depend on the processing

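The 3 called genes became 43 with the spread of all 21 PSC libraries and 41 with the cell line as a replicate block, both including the 3. There were 0 with no filter on low values (552 genes with an unadjusted p under 0.05), 6 with the liver-derived and 1 with the stomach-derived iPSC lines only, 1 without both L6 and S12, and 1 to 10 with any 1 line left out (1 without L3 or L6, 2 without S6, 5 without CMK9, 6 without S12 and 10 without CMK6). Leaving out L6 and S12 together was chosen after seeing the data. LEFTY2 was called with each line left out. Without the mean-variance trend there were 2 calls, LEFTY2 and FAM162B, and FAM162B was higher in the ESC lines. LOC102139111 and TMEM200A were not called there (limma adjusted p = 0.0766 and 0.0513). The 315 genes without overlap (12.5%) became 500 of 5246 (9.53%) with no filter. They became 607 (24.2%) without L6 and S12, and 419 to 592 (16.7% to 23.6%) with any 1 line left out. With fewer lines a lack of overlap is more frequent by chance, so counts with lines left out cannot be set against the 315. Pseudo-F was 1.52 (exact permutation p = 0.1) without L6 and S12, and 1.68 to 2.02 with any 1 line left out, each at the smallest p that its size allows. The difference in spread between the types reversed with no filter (−3.67) and quantile normalization (−1.11), and ran from −2.82 to 5.69 with any 1 line left out. Of 917 values of 49 named genes under alternatives, 857 kept direction and call, 16 lost and 24 gained the call, and 20 values of 8 genes reversed. These were SOX2 under quantile normalization (0.03), centring (0.08), stomach-derived lines only (0.24), without L6 and S12 (0.04) and with 1 line left out (−0.15 to 0.27), CRIPTO with stomach-derived lines (0.47) and with 1 line left out (−0.93 to 0.55), MAGI2 with stomach-derived lines (0.58), LEFTY1 (0.35), HESX1 (−0.20), CD24 (−0.06), TRIM71 (−0.13) and AFP (−0.36) with liver-derived lines, TRIM71 (−0.03 to 0.57) and AFP (−0.40 to 0.82) with 1 line left out, where S12 gave the lowest value, and AFP without L6 and S12 (−0.46). None of the 8 was called. The cause of these changes was not tested. Of 308 list medians, 293 moved by less than the spread between lines. At the depth of L6, values under 3.49 RPM could not be told from 0, which limits DPPA2, GRHL3 and LOC102137968.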
